A study of Homo sapiens with 8 samples.

Results

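The clustered replication-dependent histone genes are the genes that supply the bulk of histone protein during DNA replication. They were taken as the protein-coding genes on chromosomes 1 and 6 whose GENCODE symbol starts with H2AC, H2BC, H3C or H4C followed by a number, or is one of H1-1 to H1-6. The annotation on GRCh37 held 63 of them among 20098 protein-coding genes of chromosomes 1 to 22 and X. There were 6 genes of H1, 16 of H2A, 16 of H2B, 13 of H3 and 12 of H4. The annotation placed 51 of them on chromosome 6, with 28 in the large 6p22 cluster, 5 in a middle cluster, 16 in a distal cluster, and the pair H2AC1 and H2BC1 apart from the rest. The other 12 lay on chromosome 1, with 10 at 1q21 and 2 at 1q42. A pair of genes of the same clusters, HIST1H4B on chromosome 6 and HIST2H2AA3 on chromosome 1, carried an older symbol in this annotation and was therefore not counted.

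The data were lists of ChIP-seq islands from PC9, a human lung adenocarcinoma cell line, grown for 5 days either in DMSO, the vehicle, or in 1 µM GSK126, an inhibitor of the methyltransferase EZH2. Both groups had 2 libraries for H3K27me3 and 2 for H3K4me3, all prepared with D. melanogaster chromatin and an H2Av antibody as a spike-in, and 14 lists were made from these 8 libraries. In the standard lists the authors had brought the DMSO and GSK126 libraries of a replicate to the same number of human tags, and in the spike-in lists the fly tags had set how many human tags to keep. H3K4me3 DMSO libraries had a single list each, which served for both, so the standard and the spike-in comparison of H3K4me3 share their DMSO values. The labels do not number the replicates, and the study describes its replicates as biological.

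Replication-dependent histone genes are transcribed in S phase. Their mRNAs have no poly(A) tail and end instead in a conserved stem-loop that is bound by SLBP, the stem-loop binding protein. H3K4me3 marks the promoters of active genes and of genes poised for activity, whereas H3K27me3 is laid down by EZH2 within Polycomb repressive complex 2 and marks genes that are kept silent. H2A, H2B, H3 and H4 form the nucleosome core and H1 binds the linker DNA. H1-6, H2AC1 and H2BC1 are known as genes of the male germ line.

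The stem-loop was present within 150 bases after the stop codon of 63 of the 63 genes, and in 67 of 19697 protein-coding genes with an annotated stop codon (0.34%). The sequence, which the rule did not use, therefore fits the label of every member. The other 4 genes with a stem-loop were H3-7, H3-4, H2AX and H4C16. The most common forms are shown because they separate H4 from the other families, with the reference sequence in lower case.
38 genes of H1, H2A, H2B and H3: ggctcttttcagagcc
8 genes of H1, H2A, H2B and H3: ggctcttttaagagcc
7 genes of H4: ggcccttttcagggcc
4 genes of H4: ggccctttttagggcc

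The promoters were also unlike those of other genes. In the 150 bases before the start of the canonical transcript, TATAA on the gene's strand was found in 47 of 63 (74.6%), against 9.03% of all protein-coding genes. CCAAT on either strand was found in 53 of 63 (84.1%), against 26.3% of all genes, and the exceptions were H4 genes, of which only 2 of 12 held it. ATTTGCAT, the octamer bound by POU2F1, was found on either strand in 17 of 63 (26.98%), against 0.916% of all genes. Of the 17, 12 were H2B genes and 5 were H2A genes. Where an H2A and an H2B gene start close together on opposite strands, their 150 bases overlap, and a match on either strand can count for both. The same octamer was counted for H2AC1 and H2BC1, for H2AC6 and H2BC4, and for H2AC17 and H2BC17. The promoters had a median GC content of 44.7%, against 65.3% over all genes. These matches are descriptions of letters and not of bound sites.

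The promoters of 5 genes are given as examples, chosen by the islands over these genes or the lack of them. H3C7 and H2BC9 lie head to head in the large 6p22 cluster and had no island of either mark in any list. H3C8 and H2BC10 lie head to head to the right of them and were fully inside an H3K4me3 island in DMSO replicate 1. H2BC1 is the gene with the highest share under an H3K27me3 island in any list. Each line gives the 150 bases before the start, 5′ to 3′ on the gene's strand, from GRCh37. Capitals mark TATAA on that strand and CCAAT and ATTTGCAT on either strand (ATTGG and ATGCAAAT on the reverse strand). In 0 of the 63 promoters did a match of one motif overlap a match of another.
H3C7, chr6:26250864-26251013, minus strand: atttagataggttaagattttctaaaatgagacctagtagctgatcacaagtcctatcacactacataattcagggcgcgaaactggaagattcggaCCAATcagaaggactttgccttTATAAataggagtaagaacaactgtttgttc
H2BC9, chr6:26251692-26251841, plus strand: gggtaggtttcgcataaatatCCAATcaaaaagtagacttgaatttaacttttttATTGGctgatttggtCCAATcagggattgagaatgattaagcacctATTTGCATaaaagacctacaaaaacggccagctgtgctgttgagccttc
H3C8, chr6:26271642-26271791, minus strand: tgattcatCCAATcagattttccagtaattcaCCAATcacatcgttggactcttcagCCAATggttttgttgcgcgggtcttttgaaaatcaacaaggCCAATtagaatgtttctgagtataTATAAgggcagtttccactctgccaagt
H2BC10, chr6:26273009-26273158, plus strand: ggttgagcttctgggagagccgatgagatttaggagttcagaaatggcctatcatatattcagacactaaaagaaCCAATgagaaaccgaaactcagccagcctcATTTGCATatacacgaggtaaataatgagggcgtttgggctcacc
H2BC1, chr6:25726855-25727004, plus strand: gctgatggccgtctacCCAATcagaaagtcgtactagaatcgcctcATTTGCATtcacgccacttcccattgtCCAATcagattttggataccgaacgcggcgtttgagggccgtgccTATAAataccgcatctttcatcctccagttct

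The H3C7 promoter held TATAA and CCAAT, as the H3C8 promoter did. The H2BC9 promoter held CCAAT and ATTTGCAT but not TATAA, as the H2BC10 promoter did. GC content was 37.3% for H3C7 and 38% for H2BC9, and 40% for H3C8 and 44.7% for H2BC10. By the presence of these motifs each gene thus matched its counterpart, while GC content was lower in H3C7 and H2BC9 than in their counterparts. H2BC1, which also had no H3K4me3 island in any list, had the highest GC content of the promoters shown, 49.3%. Lower GC content thus did not go with a lack of H3K4me3 in all of them. Other members were not compared in this way, and a link between promoter sequence and H3K4me3 was not tested.

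An island is a run of 200-bp windows that the SICER algorithm found enriched for tags. For every gene, the percentage of the gene and 2 kb either side of it that lay inside islands was computed in each list, and this percentage is called the covered share. An island list holds no tag counts, so the number of tags behind a covered share is not given here, and a gene without an island is a gene where none was called at the depth of that list.

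H3K27me3 was nearly absent from the clusters before treatment. In the standard DMSO lists an H3K27me3 island reached 1 of the 63 genes in both replicates, compared with 26.5% of all protein-coding genes (5321 of 20098). That gene was H2BC26, an H2B gene at 1q42, with a covered share of 24.5% in replicate 1 and 15.6% in replicate 2. Its island began close to the end of the gene or beyond it (chr1:228650601-228661600 in replicate 1 and chr1:228651401-228658000 in replicate 2) and did not reach its start. No island lay within 2 kb of the start of any member in both of these lists.

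The spike-in DMSO lists, in which the DMSO libraries had kept all their tags, added a further pair of genes in a single library. H2AC1 and H2BC1 had a covered share of 33.5% and 52.5% in replicate 1, and 0% in replicate 2. They shared 1 island of 2.4 kb (chr6:25725801-25728200) that covered the whole stretch between their divergent starts. Its score stood at percentile 8.90 of the list, near the bottom. In the standard list of that library the island was not called. That list held 26380 islands over 278.8 Mb, against 35901 islands over 274.8 Mb in the spike-in list. Why the island was missing from it was not tested. H2BC26 had a covered share of 15.6% in both spike-in DMSO lists.

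No H3K27me3 island lay anywhere in the 269-kb span of the large 6p22 cluster, nor in the spans of the middle and distal clusters or at 1q21, in any of the standard DMSO lists. From the large cluster, the nearest island in the standard DMSO lists was 178 kb to the left in replicate 1 and 177 kb in replicate 2, and 325 and 164 kb to the right. At 1q21 an island began 16.7 kb beyond the last histone gene in replicate 1 and 16.5 kb in replicate 2. On chromosome 6 the closest island to a cluster in these lists was 32.1 kb away, to the right of the middle cluster in replicate 1.

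**Figure D1:**
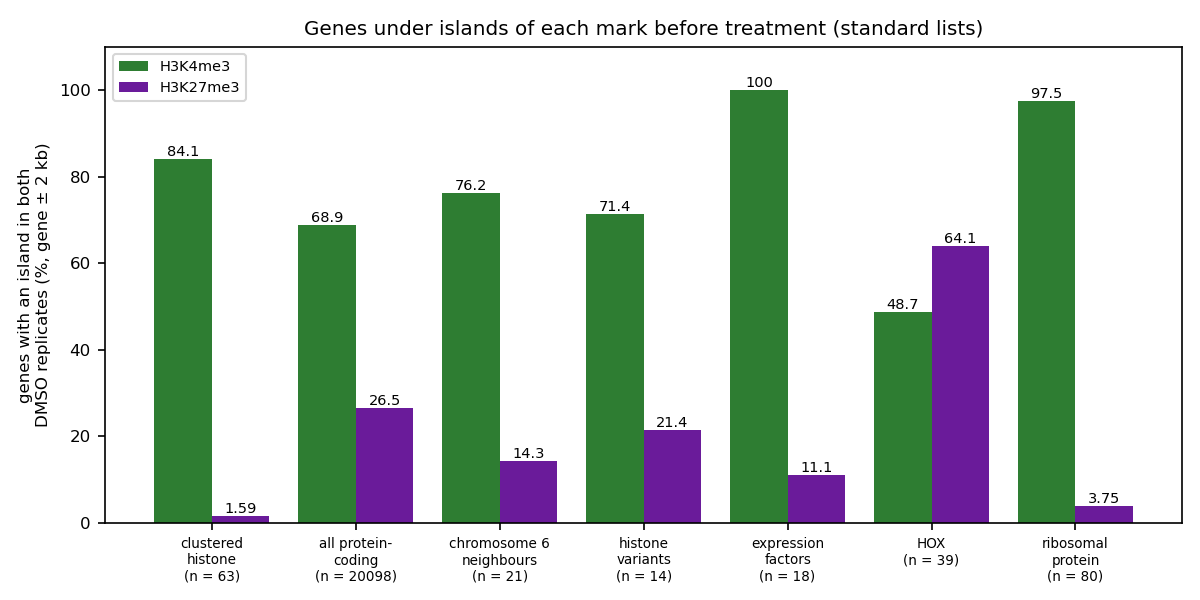
Bars show the percentage of genes of each group with an island of H3K4me3 (green) or H3K27me3 (purple) within the gene or 2 kb either side in both DMSO replicates of the standard lists, with the number of genes under each name. The clustered histone genes stand at 84.1% for H3K4me3 and at 1.59% for H3K27me3, and HOX genes at 48.7% and 64.1%.

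Other groups of genes differed from the histone clusters in the same lists. HOX genes, which are classical Polycomb targets, had an H3K27me3 island in both replicates in 25 of 39 (64.1%). The ribosomal protein genes, which like the histone genes are many and highly transcribed, had one in 3 of 80 (3.75%). The 21 neighbours of the histone genes on chromosome 6 had one in 3 (14.3%), and histone variant genes outside the clusters in 3 of 14 (21.4%). Gene windows differed in size, with a median of 4.51 kb for the clustered histone genes, 9.44 kb for ribosomal protein genes and 31.3 kb for all genes, and a longer window has more room for an island. Within 2 kb of the start, the median H3K27me3 share of HOX genes was 80% in replicate 1 and 71.3% in replicate 2. It was 0% in both for the clustered histone genes. All protein-coding genes, ribosomal protein genes, the neighbours and the histone variant genes also had a median of 0% in both. This median therefore does not set the clustered histone genes apart from genes in general.

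H3K4me3 was present at most of the clustered genes. An island reached 54 of 63 in DMSO replicate 1 and 53 of 63 in replicate 2, and 53 had one in both, compared with 68.9% of all protein-coding genes (13843 of 20098). The median covered share was 69.7% in replicate 1 and 33.0% in replicate 2. The replicates differed throughout: the list of replicate 1 held 23875 islands over 85.2 Mb, that of replicate 2 18420 islands over 39.96 Mb, and 10 members were fully covered in replicate 1 against 1 in replicate 2. The order of the genes was similar, with a Spearman's rho of 0.933 over the 63 genes, which share islands with their neighbours and are not independent.

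**Figure D2:**
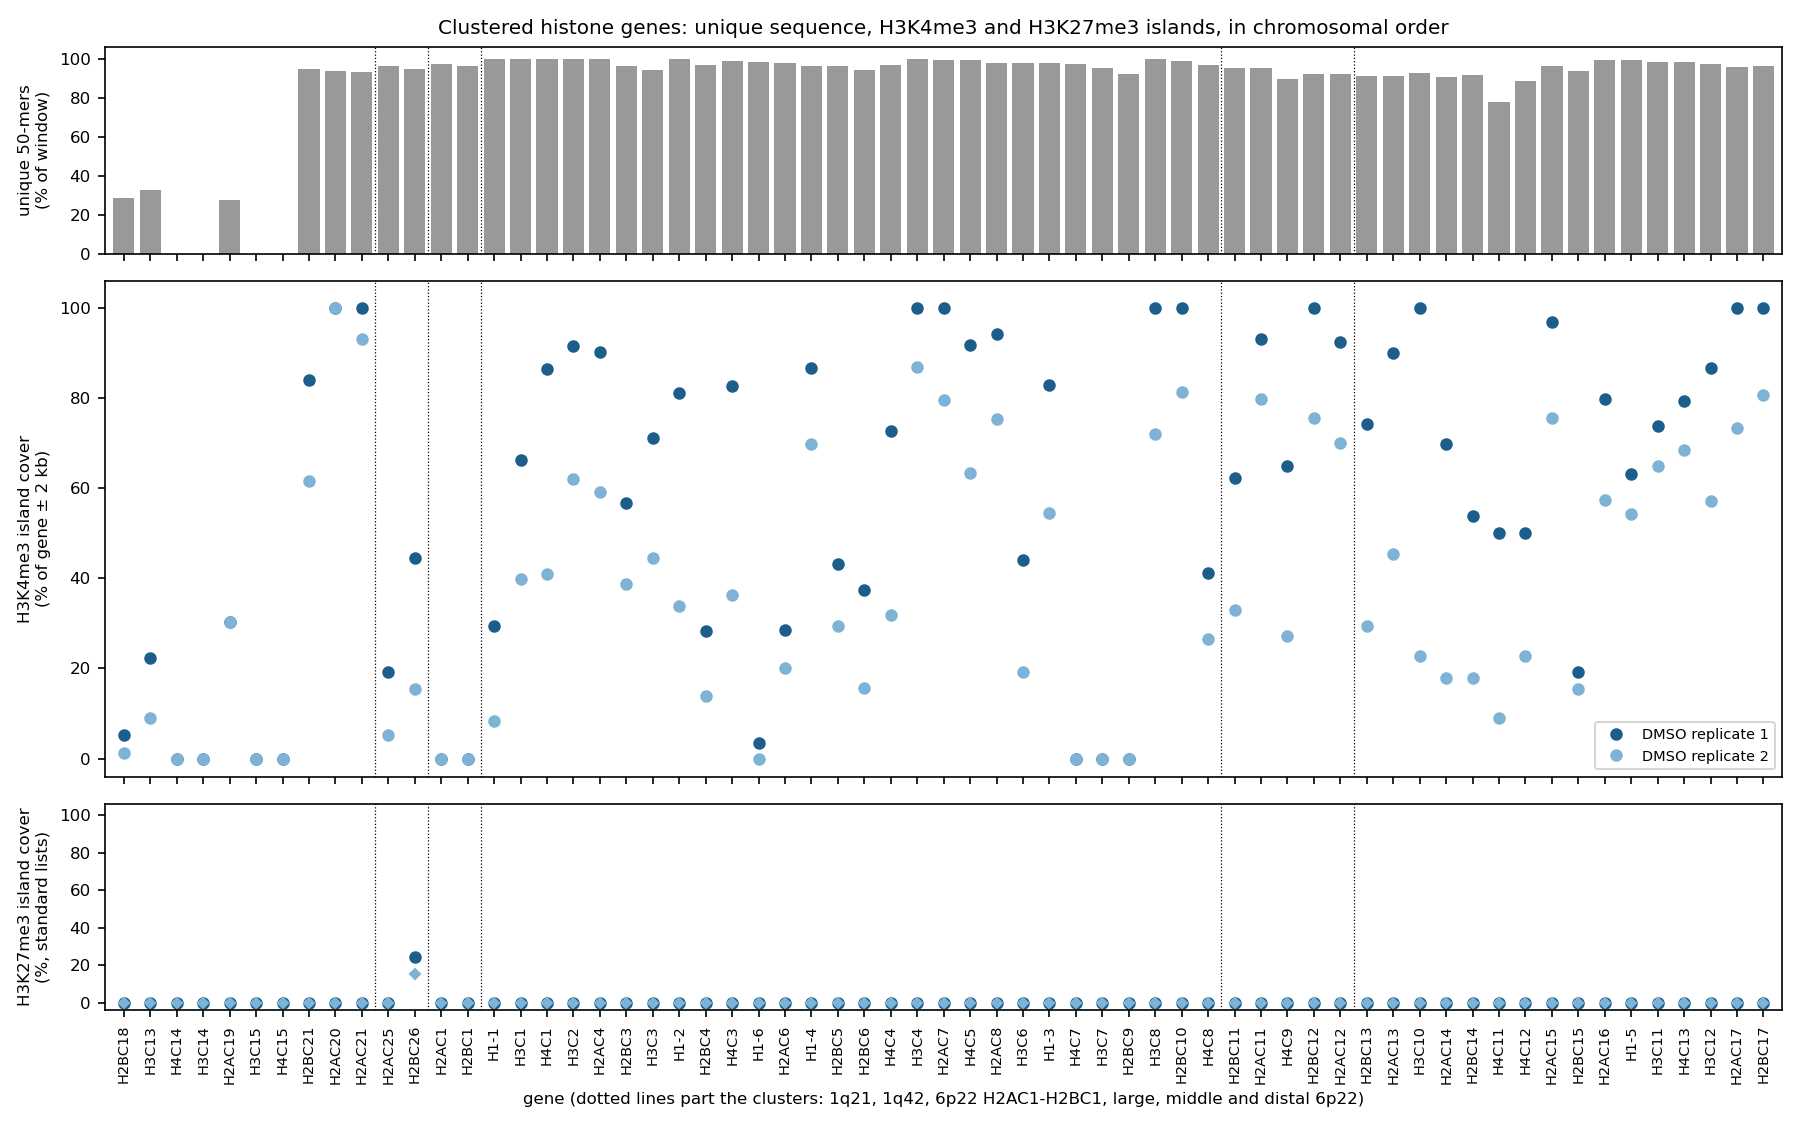
Each column is 1 of the 63 genes in chromosomal order, and dotted lines part the 6 clusters. The upper panel shows the percentage of unique 50-base sequences in the gene and 2 kb either side, the middle panel the share inside H3K4me3 islands and the lower panel the share inside H3K27me3 islands of the standard lists, for DMSO replicate 1 (dark) and 2 (light). H4C7, H3C7 and H2BC9 stand at 0% between covered neighbours, and 7 genes at 1q21 stand under 50% unique sequence.

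The linker histone genes ranged widely. H1-4 had a covered share of 86.55% in replicate 1 and 69.8% in replicate 2, H1-3 of 82.9% and 54.4%, and H1-2 of 81.0% and 33.8%. H1-5 had 63.2% and 54.2%. H1-1, a linker histone gene at the left end of the large cluster, had 29.4% and 8.41%. H1-6, the H1 gene of the testis, had 3.41% and 0%, and that share came from the edge of the island over H4C3 (chr6:26102001-26105800), which ended before the gene itself. Every H1 gene other than H1-6 thus had an island over the gene in both replicates, and H1-1 had a lower share than the other 4. In replicate 2 the island of H1-1 was 0.4 kb long and did not contain the gene start. Its score stood at percentile 2.86 of the list, near the bottom.

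Among the core histones, H2A genes had the highest median covered share, 91.2% in replicate 1 and 64.6% in replicate 2. The medians were 71.1% and 39.9% for H3, 57.6% and 26.95% for H4, and 49.1% and 23.6% for H2B. These medians include the 7 genes at 1q21 with under 50% unique sequence, which are unevenly spread over the families. They are H3C13, H3C14 and H3C15 of H3, H4C14 and H4C15 of H4, H2AC19 of H2A and H2BC18 of H2B. Family medians without them were not computed. Some H2B genes have long windows: H2BC15, with a window of 21.2 kb and 93.5% unique sequence, had 19.3% and 15.5% over that window but 100% and 81.3% within 2 kb of its start. Around the start alone, with 2 kb either side, the median for H2B was 91.3% in replicate 1 and 56.2% in replicate 2, second to H2A with 100% and 76.0%. The order of the families therefore depended on the window, except that H2A was highest in both windows among the core histones. H2AC20 at 1q21 was the gene that was fully covered in both DMSO replicates, and it was fully covered in every GSK126 list as well.

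By cluster, all 16 genes of the distal cluster and all 5 of the middle cluster had an H3K4me3 island in both DMSO replicates. The middle cluster had the highest medians, 92.4% in replicate 1 and 69.9% in replicate 2, against 76.75% and 49.85% for the distal cluster and 71.9% and 37.6% for the large cluster. The 2 genes at 1q42, H2AC25 and H2BC26, had 19.2% and 44.4% in replicate 1 and 5.17% and 15.55% in replicate 2. Within 2 kb of the start they had 85.65% and 79.9% in replicate 1 and 35.0% in replicate 2 for both, so that their low rank in replicate 1 depended on the window. H2AC1 and H2BC1 had no H3K4me3 island in any list. The germline genes H1-6, H2AC1 and H2BC1 were thus the 3 lowest of the well-mapped genes outside the stretch described next.

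H4C7, H3C7 and H2BC9 had no island of either mark in any of the 14 lists, although they lie next to each other inside the large cluster. In DMSO replicate 1 the stretch without H3K4me3 ran for 32.6 kb, from the end of the island over H1-3 at position 26236400 of chromosome 6 to the island that began at position 26269001 near H3C8. In DMSO replicate 2 it was 34.6 kb long, and in the GSK126 lists it was 33 to 34.4 kb long. The genes on either side were well covered. H1-3 on the left had 82.9% and 54.4% in DMSO. H3C8 on the right had 100% and 72.1%, and H2BC10 had 100% and 81.3%. In the window of H4C7, 97.2% of the 50-base sequences occurred a single time in GRCh37, with 95.4% for H3C7 and 91.95% for H2BC9. The covered genes beside them stood higher, with 97.6% for H1-3, 99.8% for H3C8 and 98.97% for H2BC10. Covered genes elsewhere stood lower than all of these, such as H2AC14 with 90.7% and H2BC13 with 91.2%. A part of sequence uniqueness in the missing islands was not tested. The copy number of this stretch in PC9 was not tested.

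The other genes without an island were 4 genes of a duplicated segment at 1q21. H4C14, H3C14, H3C15 and H4C15 had 0% unique 50-base sequences, and since the authors kept only uniquely mapped tags, no tag could be counted over them. Another 3 genes at 1q21 had less than 50% unique sequence, H2BC18 with 28.4%, H3C13 with 32.6% and H2AC19 with 27.35%. Their covered shares in DMSO were 5.34% and 1.19%, 22.4% and 8.95%, and 30.3% in both replicates. Their values cannot be told apart from the effect of the missing sequence. HIST2H2AA3 at 1q21, not counted among the members, had 33.7% and 16.1%, and HIST1H4B on chromosome 6 had 75.2% and 27.5%. Among the 56 genes with at least 50% unique sequence, 51 had an island in replicate 1 and 50 in replicate 2.

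Because the genes are packed closely, 1 island often covered several of them. The 54 genes with H3K4me3 in DMSO replicate 1 were covered by 38 islands, and the 53 in replicate 2 by 36. The island chr6:27774401-27783200, 8.8 kb long, reached H2BC13, H2AC13, H3C10, H2AC14 and H2BC14 in replicate 1. In replicate 2 the same stretch held 3 islands, and the shares of the 5 genes were between 17.9% and 45.5%, compared with 53.7% to 100% in replicate 1. By score, the islands over members stood at a median percentile of 57.7 in replicate 1 and 43.3 in replicate 2, so they were near the middle of their lists.

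An arrangement that many members share is a divergent pair of an H2A and an H2B gene. There were 10 such pairs with 193 to 250 bases between their starts. The whole stretch between the starts lay inside an H3K4me3 island for 9 of the 10 in DMSO replicate 1 and for 6 in replicate 2. The pair without any H3K4me3 there in either replicate was H2AC1 and H2BC1. For H2BC13 and H2AC13 the stretch was fully covered in replicate 1 and 0% covered in replicate 2, where islands lay on both sides of it. For H2AC14 and H2BC14 it was 100% and 18.4%.

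**Figure D3:**
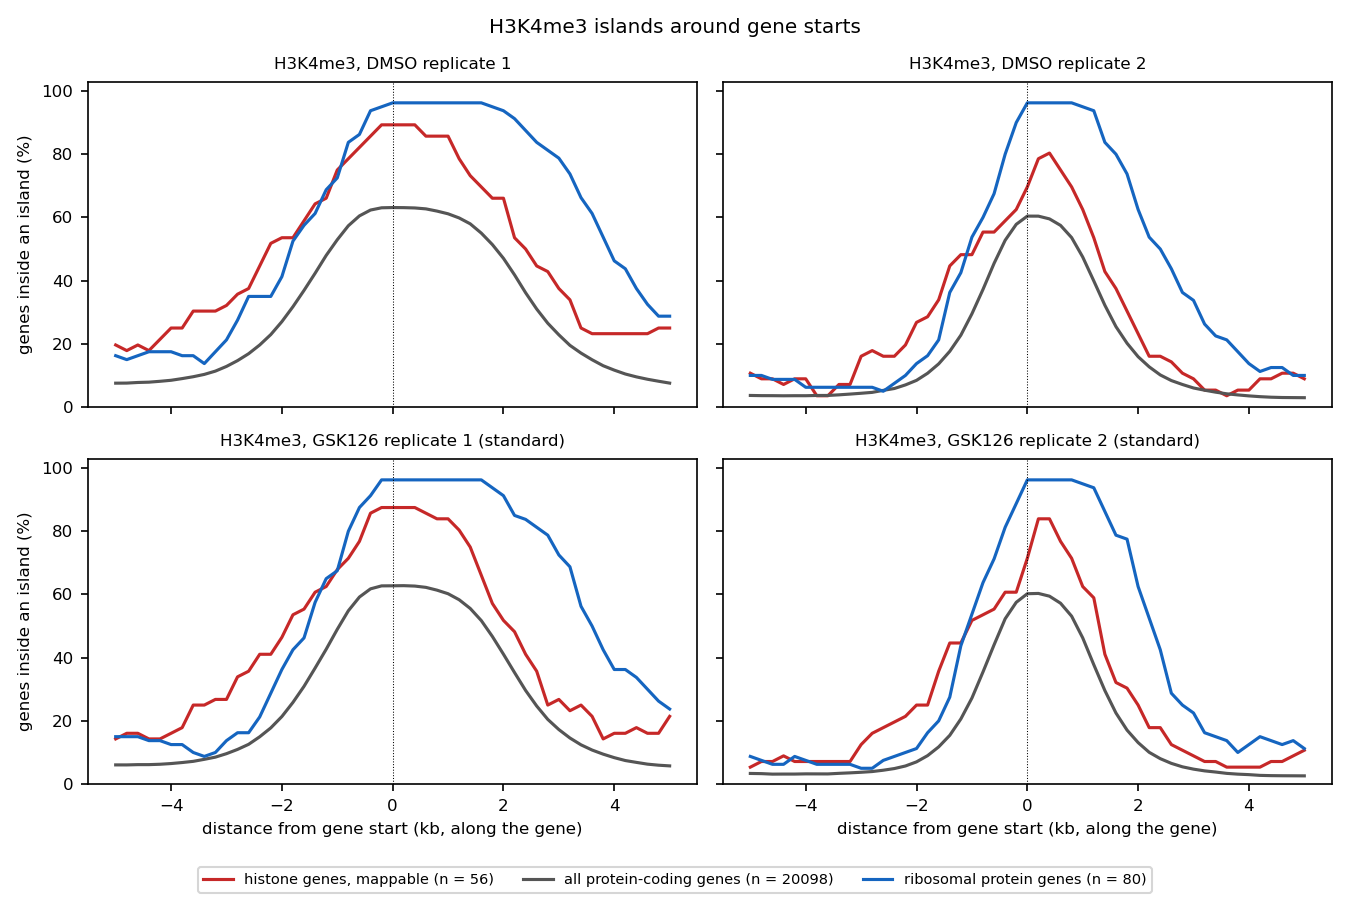
The horizontal axis gives the distance from the gene start in kb and the vertical axis the percentage of genes inside an H3K4me3 island at that distance, for DMSO (upper) and GSK126 (lower, standard lists) in replicates 1 and 2, over 56 histone genes with at least 50% unique sequence (red), 20098 protein-coding genes (grey) and 80 ribosomal protein genes (blue). At the start the histone genes stand at 89.3% in DMSO replicate 1 and at 69.6% in replicate 2.

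Around the gene start, 89.3% of the 56 well-mapped histone genes lay inside an H3K4me3 island in DMSO replicate 1 and 69.6% in replicate 2. Over all protein-coding genes the values were 63.1% and 60.4%, and over ribosomal protein genes 96.25% in both. At 3 kb before the start, the histone genes stood at 32.1% and 16.1%, compared with 12.8% and 4.36% over all genes. At 3 kb after the start, ribosomal protein genes were higher, with 78.75% and 33.75% against 37.5% and 8.93% for the histone genes. The cover upstream of the histone genes includes islands of their neighbours in the cluster.

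After treatment with GSK126, no clustered histone gene changed in H3K27me3 by the rule used here, which calls a gene when its covered share differs from DMSO by at least 10 percentage points in the same direction in both replicates. With the standard lists 0 of 63 were called lower and 0 higher, against 5.14% and 0.249% of all protein-coding genes. In the spike-in lists 0 of 63 were called lower and 0 higher, against 16.4% and 0.00995% of all genes. With 2 replicate pairs the smallest p of an exact sign-flip test is 0.5, so no p is given. Since H3K27me3 reached at most 3 members in any DMSO list, the count of 0 called lower describes genes that mostly had no H3K27me3 to lose.

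H2BC26 was the gene with values on both sides. Its covered share in the standard lists was 24.5% in DMSO and 28.9% in GSK126 in replicate 1, and 15.6% in both in replicate 2. In the spike-in lists it was 15.6% in DMSO and 0% in GSK126 in replicate 1, and 15.6% and 24.5% in replicate 2. The replicates went opposite ways in the spike-in lists, and the groups overlapped. In GSK126 the island that remained was shorter, with 5.6 and 4.6 kb in the standard lists against 11 and 6.6 kb in DMSO.

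H2AC1 and H2BC1 lost their H3K27me3 island in replicate 1 of the spike-in lists, by 33.49 and 52.53 percentage points, and had none in replicate 2 in either condition. They were 2 of the 3 members, with H2BC26, that differed by at least 10 points in that replicate. Summed over the members, H3K27me3 islands covered 6.21 kb in DMSO and 0 kb in GSK126 in replicate 1 of the spike-in lists, and 1.41 and 2.21 kb in replicate 2. In the standard lists the sums were 2.21 and 2.61 kb in replicate 1, and 1.41 kb in both conditions in replicate 2. Over all protein-coding genes, by contrast, the log2 ratio of covered length was -1.06 ± 0.021 (SD, n = 2) in the spike-in lists and -0.32 ± 0.14 (SD, n = 2) in the standard lists.

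For H3K4me3, no clustered histone gene was called either. By the standard lists 0 of 63 were called lower and 0 higher, against 0.916% and 0.0547% of all protein-coding genes. In the spike-in lists 0 of 63 were called lower and 0 higher, against 0.841% and 0.0547%. With so few calls over all genes, fewer than 1 would be reached by 63 genes at the same rate, and a count of 0 does not set the members apart.

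**Figure D4:**
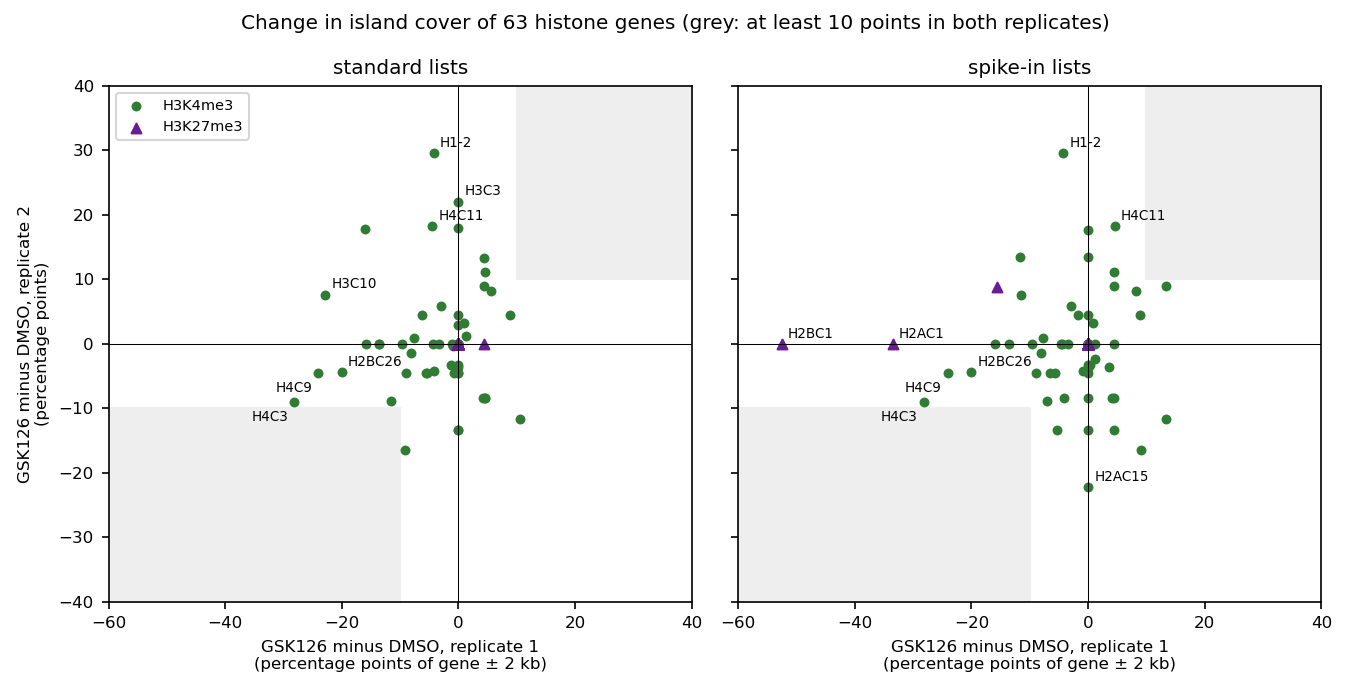
Each point is 1 of the 63 genes, with the change in covered share (GSK126 minus DMSO, percentage points) in replicate 1 on the horizontal axis and in replicate 2 on the vertical axis, for the standard lists (left) and the spike-in lists (right), with H3K4me3 as green circles and H3K27me3 as purple triangles. The grey areas hold changes of at least 10 points in the same direction in both replicates, and 0 points lie in them.

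The total length of H3K4me3 over the members changed little. It was 215.5 kb in DMSO and 200.6 kb in GSK126 in replicate 1, and 134.6 and 137.3 kb in replicate 2, by the standard lists. The log2 ratio was -0.04 ± 0.093 (SD, n = 2), compared with -0.16 ± 0.082 over all protein-coding genes. In the spike-in lists the GSK126 values were 205 and 132.5 kb, and the log2 ratio was -0.05 ± 0.035, compared with -0.17 ± 0.012 over all genes. In the standard lists the replicates of the members lay on both sides of 0, at -0.10 and 0.03, and in the spike-in lists both lay below it, at -0.07 and -0.02. Both ratios were thus nearer to 0 than over all genes. That difference was not tested. An H3K4me3 island reached 53 genes in replicate 1 and 52 in replicate 2 in GSK126, in the standard and in the spike-in lists.

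Single genes passed 10 points in 1 replicate and not, in the same direction, in the other. H4C3, an H4 gene of the large cluster, had 82.6% in DMSO and 54.5% in GSK126 in replicate 1, and 36.3% and 27.2% in replicate 2, with the same values in both normalizations. It was lower by 28.15 percentage points in replicate 1, and its drop in replicate 2 stayed below 10 points. H4C13, an H4 gene of the distal cluster, had 79.2% and 70.1% in replicate 1 and 68.4% and 51.9% in replicate 2 of the standard lists, where it came closest to the rule for a decrease, but 88.3% with GSK126 in replicate 1 of the spike-in lists. H4C9 had 65.0% and 40.9% in replicate 1, and 27.3% and 22.7% in replicate 2. H1-2 had 81.0% and 76.8% in replicate 1, and 33.8% and 63.4% in replicate 2. Its replicates went opposite ways.

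H3C11 and H2AC14 also went opposite ways. H3C11 had 73.8% in DMSO and 84.4% in GSK126 in replicate 1 of the standard lists, and 64.95% and 53.3% in replicate 2. H2AC14 had 69.7% and 53.6% in replicate 1, and 17.9% and 35.75% in replicate 2. H3C6 was higher in both replicates, with 43.99% and 49.5% in replicate 1, and 19.2% and 27.5% in replicate 2, each below the 10 points of the rule.

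Counted by replicate, 9 genes of the standard lists were lower and 1 was higher by at least 10 points in replicate 1, and 4 were lower and 7 higher in replicate 2. In the spike-in lists 7 were lower and 2 higher in replicate 1, and 6 lower and 6 higher in replicate 2. None of them was past 10 points in the same direction in both. The share of all protein-coding genes past 10 points in a single replicate was not computed, so these counts have no background. The changes of the 63 genes in replicate 1 and in replicate 2 had a Spearman's rho of 0.12 in the standard lists and 0.094 in the spike-in lists, whereas the covered shares in DMSO and GSK126 of the same replicate had 0.967 and 0.962 in the standard lists.

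The genes without H3K4me3 in DMSO had none in GSK126 either. H4C7, H3C7, H2BC9, H2AC1 and H2BC1 had 0% in all GSK126 lists. H1-6 had 0% in all of them. H1-1 had 34.0% in replicate 1 and 0% in replicate 2, in both normalizations, against 29.4% and 8.41% in DMSO. The 8.41% came from an island of 0.4 kb at score percentile 2.86 of its list. No germline histone gene thus gained an H3K4me3 island with GSK126.

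Histone variant genes outside the clusters are made throughout the cell cycle or in particular tissues, and were used for comparison. Of 14 found, 4 (28.6%) were called lower in H3K27me3 in the spike-in lists, against 16.4% of all protein-coding genes. In the standard lists 0 were called lower, against 5.14% of all genes. In the spike-in lists, H1-8, the linker histone of the oocyte, had 33.4% and 31.8% in DMSO and 0% in both GSK126 replicates. Its share in the standard DMSO lists was 0% in replicate 1 and 16.3% in replicate 2. H1-7, a linker histone of the testis, had 64.9% and 80.0% in DMSO, and 0% and 15.8% in GSK126, again in the spike-in lists. MACROH2A2 had 74.8% and 73.9%, and 38.6% and 24.3%. H1-10 had 13.2% and 20.5%, and 0% in both. H1-10 was also called lower in H3K4me3 in the standard lists, with 100% and 67.6% in DMSO and 87.02% and 54.4% in GSK126, but not in the spike-in lists, with 94.0% and 54.4%. The germline linker histones H1-7 and H1-8 thus carried H3K27me3 islands in both spike-in DMSO lists, whereas H1-6 in the cluster carried none.

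The genes of 18 factors that act in histone gene transcription or in the processing of the stem-loop all had an H3K4me3 island in both DMSO replicates. Over all protein-coding genes 68.9% had one. Of the 18 genes 0 were called in any comparison. For a decrease of H3K27me3, called in up to 16.4% of all genes, this outcome was fixed in advance. No factor gene had a DMSO share above 3.58%, too little for a drop of 10 points. For H3K4me3, 0.916% of all genes were called lower in the standard lists and 0.841% in the spike-in lists. Long genes such as NPAT had too small an H3K4me3 share to fall by 10 points. NPAT, the coactivator of histone genes in S phase, had an H3K4me3 share of 6.86% and 4.32% in DMSO, over a long gene, and 5.71% in both GSK126 replicates of both normalizations. SLBP had 24.0% and 17.8% in DMSO, and 24.9% and 18.6% in GSK126 in the standard lists. H3K27me3 reached GON4L and SYMPK in both DMSO replicates, with at most 3.58% of the gene. CCNE2, a partner of CDK2 at the start of S phase, had no H3K27me3 in DMSO and 20.6% and 8.61% in GSK126 in the standard lists, and none in the spike-in lists.

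Neighbours on chromosome 6 were not called in any comparison, 0 of 21 in each. Of the HOX genes, 9 of 39 (23.1%) were called lower in H3K27me3 in the standard lists and 12 of 39 (30.8%) in the spike-in lists. Over all protein-coding genes the shares were 5.14% and 16.4%. Of the ribosomal protein genes 1 of 80 (1.25%) was called lower in H3K27me3 in the standard lists and 2 of 80 (2.5%) in the spike-in lists. For H3K4me3 3 of 80 (3.75%) and 4 of 80 (5%) were called lower, against 0.916% and 0.841% of all genes.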

How the data were processed

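ChIP-seq of H3K27me3 and H3K4me3 was performed in PC9 cells. Single-end tags of 50 nt had been aligned to hg19 with BWA by the authors (the submitters' processing notes list SAMtools 0.1.18), who then discarded duplicates and tags that were not unique, removed human tags at random for each normalization, and ran SICER on each library without input, with an E-value of 1, 200-bp windows, and a gap of 600 bp (H3K27me3) or 200 bp (H3K4me3). The deposited island score depends on tag number and was used only to rank or filter islands within a list. Antibody and treatment came from the labels, and replicate numbers from the library names of the study.

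Covered length per gene and 2 kb either side (GENCODE release 44 on GRCh37) was computed with Python 3.11.15 and NumPy 2.4.6, and Matplotlib 3.10.9 drew the plots. Unique sequence is the percentage of 50-base sequences that occur a single time in GRCh37 on both strands. The code was tested on simulated data. Replicates were paired because tags had been removed within a replicate. The study gives tag numbers per library, which were not used here. The lists hold no tag counts per gene or island, so no counting interval was computed. The log2 ratio planned for H3K27me3 in the spike-in lists is undefined in replicate 1, where GSK126 covers 0 kb, and the change in kb replaced it.

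Genes named are members with H3K27me3 over at least 10% of the window in a DMSO list, called members, members without H3K4me3 in DMSO, and H1-6, H2AC1, H2BC1 and H1-1. Other genes named as examples were chosen after their values were seen. Members and gene lists were chosen with earlier results of these data known. The histone variant list held 15 symbols, of which 14 were found.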

Additional observations from a re-analysis of the deposited data

How the results depend on the processing

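Of 159 values recomputed under other settings, 142 stayed within the limits set for them and 17 did not. At a difference of 5 instead of 10 points, H3K4me3 gave 3 members lower and 1 higher in the standard lists, and 3 lower and 2 higher in the spike-in lists. With islands of at least 2 times the lowest score, H3K27me3 gave 1 member lower in the spike-in lists (H2BC26). With the gene body alone, H3K4me3 gave 1 member higher in the spike-in lists (H3C6). H3K27me3 was found in both DMSO replicates at 0 members, not 1, with 2 kb either side of the start or with the gene body alone. With 1 replicate left out, where a single pair decides a call, H3K27me3 gave 0 to 3 members lower in the spike-in lists. H3K4me3 then gave 6 to 7 lower and 2 to 6 higher in the spike-in lists, and 4 to 9 lower and 1 to 7 higher in the standard lists. The counts under these other settings were not computed over all protein-coding genes, so they have no background share. The change in H3K27me3 length in the spike-in lists, -2.70 kb over both replicates, ran from -6.21 to 0.80 kb, and the H3K4me3 log2 ratio of the standard lists from -0.10 to 0.03, so that both turned in sign without replicate 1. The H3K27me3 length ratio of the standard lists could not be computed with the gene start or the gene body as the window, where the covered length was 0. Without the replicate block, no member was called in any comparison. Settings added after seeing the data, with only the 56 genes of at least 50% unique sequence or with the 2 genes of older symbols, moved no value past its limit. The lists give no tag counts, which limits what a missing island means, and with 2 replicate pairs an exact sign-flip test cannot go below 0.5.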
